A study of Mus musculus with 6 samples.

Results

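The 10 genes described here encode the contractile apparatus of peritubular myoid cells, the flat smooth-muscle-like cells that wrap the seminiferous cords and tubules. They are Acta2, Actg2, Cnn1, Tagln, Lmod1, Smtn, Myh11, Mylk, Synpo2 and Itga8, taken by name from a table of 14998 genes, in which all 10 were present. RNA came from whole mouse testes of 2 genotypes with 3 libraries each. Knockout (KO) libraries came from males with floxed Lats1 and Lats2 on both chromosomes together with the Amh-cre transgene. Control libraries came from males with the same 4 floxed alleles and no Cre, so the floxed alleles were common to both groups and Cre itself cannot be told apart from the loss of the kinases. Amh-cre is meant to act in Sertoli cells, which lie inside the cords, and to leave the alleles of myoid cells intact. Recombination in either cell type was not measured here. The labels give no age and do not say that each library came from its own animal. The p-values therefore rest on library-to-library spread alone, which could be technical. The series' design text names adrenal glands, whereas the sample labels name testes. The Sertoli cell hormone gene Amh had 66.1 ± 2.71 FPKM in control libraries (SD, n = 3), and 10 of 12 germ cell markers were in the table.

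Smooth muscle contracts when calcium and calmodulin activate the myosin light chain kinase, which lets smooth muscle myosin pull on filaments of smooth muscle actin. Calponin, transgelin, smoothelin and leiomodin bind those filaments, and integrins tie them to the matrix outside the cell. Serum response factor (SRF), working with myocardin and the myocardin-related factors, drives many of these genes through a DNA element called the CArG box. In the testis, contraction of the myoid layer moves sperm and fluid along the tubules. All 10 genes are also expressed by the smooth muscle of blood vessels, so in whole testes they do not mark myoid cells alone.

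Promoters of 7 members were found in the RefSeq set for GRCm38.p6 (Acta2, Cnn1, Lmod1, Smtn, Mylk, Synpo2 and Itga8), each running from 250 bases before a RefSeq start to 50 bases after it. That start lay within 37 bases of the gene boundary in the deposited table for 5 of them. For Smtn and Mylk it was an internal start, 1320 and 39740 bases inside the gene, so their windows do not cover the outermost start. The promoters of 3 members that rose and of Synpo2, which was lower in KO libraries, are given here. Capitals mark CArG-like sequences (CCNNNNNNGG with at least 5 A or T among the 6 middle bases, a form that reads alike on both strands) and the 6-base core recognised by TEAD factors, the DNA-binding partners of YAP and TAZ (GGAATG, on either strand). The coordinates are chr19:34255324-34255623 for Acta2, chr11:3539243-3539542 for Smtn, chr2:12301895-12302194 for Itga8 and chr3:123236100-123236399 for Synpo2, all on the minus strand.
Acta2: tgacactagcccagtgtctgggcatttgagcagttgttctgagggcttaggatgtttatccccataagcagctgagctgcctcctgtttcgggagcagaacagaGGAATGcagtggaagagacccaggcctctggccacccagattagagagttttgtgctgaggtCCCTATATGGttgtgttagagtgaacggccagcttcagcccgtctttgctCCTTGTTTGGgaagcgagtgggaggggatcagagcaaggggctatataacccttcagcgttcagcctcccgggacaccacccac
Smtn: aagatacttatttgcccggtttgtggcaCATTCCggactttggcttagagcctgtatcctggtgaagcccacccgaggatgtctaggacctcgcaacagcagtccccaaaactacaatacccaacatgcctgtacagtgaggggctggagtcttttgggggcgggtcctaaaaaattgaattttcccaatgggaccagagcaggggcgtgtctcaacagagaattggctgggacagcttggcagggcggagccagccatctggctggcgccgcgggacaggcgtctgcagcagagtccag
Itga8: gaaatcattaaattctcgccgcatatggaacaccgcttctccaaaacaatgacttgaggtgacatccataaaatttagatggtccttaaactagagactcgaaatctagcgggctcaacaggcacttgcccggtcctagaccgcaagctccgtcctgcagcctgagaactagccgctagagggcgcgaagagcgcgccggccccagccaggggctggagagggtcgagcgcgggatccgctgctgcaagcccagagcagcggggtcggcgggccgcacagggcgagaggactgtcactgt
Synpo2: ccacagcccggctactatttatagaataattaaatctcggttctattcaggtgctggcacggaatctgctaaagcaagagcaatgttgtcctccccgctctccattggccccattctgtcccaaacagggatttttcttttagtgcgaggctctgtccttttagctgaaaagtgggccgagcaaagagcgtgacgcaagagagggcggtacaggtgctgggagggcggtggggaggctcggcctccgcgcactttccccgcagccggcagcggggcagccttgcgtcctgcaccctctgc
Acta2 was the only one of the 7 promoters with CArG-like sequences. It held CCCTATATGG at -84 to -75 and CCTTGTTTGG at -34 to -25 from the start, and GGAATG at -146 to -141. Of all 32851 RefSeq promoters of this length, 9.98% held a CArG-like sequence. The TEAD core was found in 4 of the 7 promoters, those of Acta2 and Lmod1 and the internal ones of Smtn and Mylk, against 14.7% of all promoters. These matches describe letters in a short window and are no sign of binding.

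Recovered library totals were 11045693 to 12322843 reads in KO libraries and 9490734 to 13620088 reads in control libraries. Lats1, a targeted kinase gene, had 12.9, 12.7 and 12.4 FPKM in the libraries labelled KO, against 16.3, 15.3 and 15.4 FPKM in control libraries (log2 fold change -0.29, limma adjusted p = 0.000474). Lats2, the other target, was not lower but higher, with 17.8, 18.2 and 18.1 FPKM in the libraries labelled KO, against 15.4, 14.5 and 17.0 FPKM in control libraries (log2 fold change 0.20, limma adjusted p = 0.0126). These levels cover whole genes in whole testes, where cells other than Sertoli cells are meant to keep both genes. Which exons are floxed is not stated, so neither Lats1 nor Lats2 gives a check of the labels. Control replicate 3 stood apart from the other control libraries on the second principal component (15.8, against -7.85 and -8.26), which held 2.99% of the variance.

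**Figure D1:**
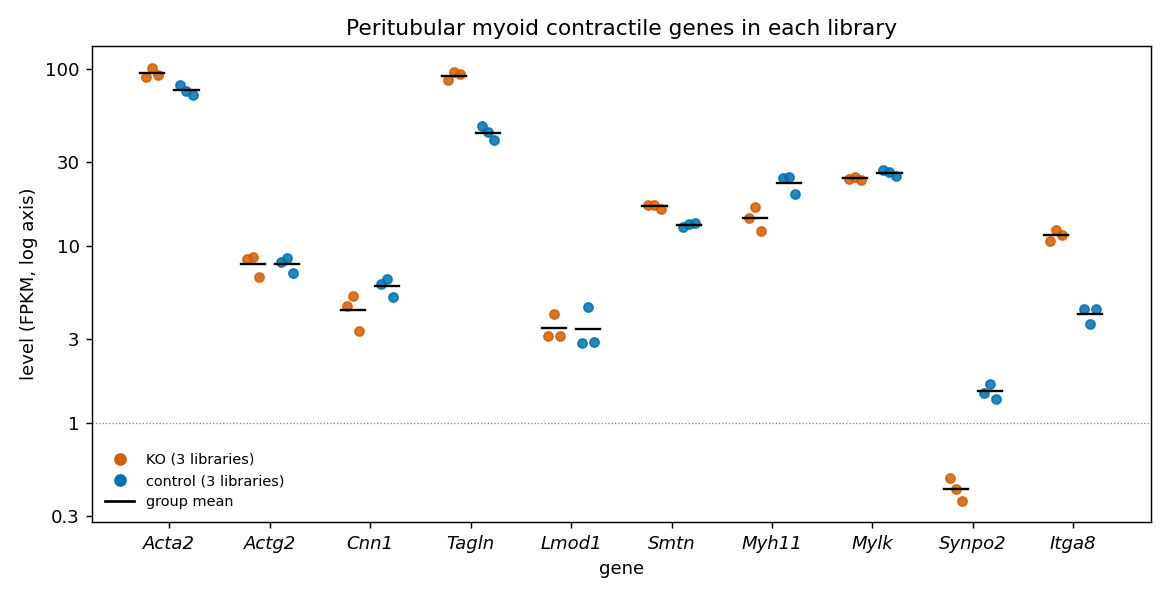
Level of each member in each library, in FPKM on a log axis, with KO libraries left of control libraries and a bar at the group mean. Tagln and Itga8 stand clearly higher in KO libraries, Myh11 and Synpo2 clearly lower, and the groups overlap for Actg2, Cnn1 and Lmod1. The dotted line at 1 FPKM is the mean a gene needed to be tested.

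The members did not move as a block. A gene was tested if it averaged 1 FPKM or more over the 6 libraries, and 9 members met this limit. Of these, 4 were higher in KO libraries (Itga8, Tagln, Acta2 and Smtn), 2 were lower (Myh11 and Cnn1) and 3 did not pass the test (Mylk, Actg2 and Lmod1), by limma on log2(FPKM + 1) with Benjamini-Hochberg adjustment over 13778 genes at a threshold of 0.05. Over all genes tested 68.9% were called, 35.2% as higher in KO libraries and 33.7% as lower, so the members' shares are near the background. The median log2 fold change of the 9 members was 0.03, against 0.01 over all genes tested. Synpo2 fell under the limit of 1 FPKM and was tested only without that limit. KO and control ranges were separate for 6 of the 9 tested members, where 74.3% of all genes tested had separate ranges. In whole organs a change in the number of myoid cells cannot be told apart from a change in RNA per cell, and this holds for every value below.

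Of the smooth muscle actins, Acta2 rose and Actg2 did not pass the test. Acta2 (chromosome 19, 34241090 to 34255336, GRCm38), the gene of smooth muscle alpha-actin, had 91.0, 102 and 92.9 FPKM in KO libraries 1 to 3, against 81.8, 75.9 and 71.3 FPKM in control libraries 1 to 3. Every KO library lay above every control library, and the log2 fold change was 0.32 (SE 0.07, limma adjusted p = 0.00227), a ratio of mean FPKM of 1.25. Actg2 (chromosome 6, 83512905 to 83536265), the gene of the gamma-actin of gut and other visceral smooth muscle, had 8.52, 8.75 and 6.72 FPKM in KO libraries and 8.16, 8.60 and 7.03 FPKM in control libraries. These ranges overlapped almost completely, with a log2 fold change of 0.01 (SE 0.10, limma adjusted p = 0.957). Actins resemble each other closely in protein, yet only 0.33% of the 50-base stretches of Acta2 transcripts, and none of those of Actg2, occurred in transcripts of another gene in GENCODE M21.

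The actin-binding members went in different directions. Tagln (chromosome 9, 45929628 to 45936058) encodes transgelin, an early marker of smooth muscle that cross-links actin, and had 86.6, 96.0 and 93.6 FPKM in KO libraries, against 47.6, 44.1 and 39.6 FPKM in control libraries. The lowest KO library was 1.82 times the highest control library, and the log2 fold change was 1.06 (SE 0.07, limma adjusted p = 2.64e-06). Cnn1 (chromosome 9, 22099281 to 22109630), the gene of basic calponin and a marker of mature smooth muscle, had 4.59, 5.24 and 3.32 FPKM in KO libraries and 6.14, 6.57 and 5.16 FPKM in control libraries. One KO library reached into the control range, and the log2 fold change of -0.38 was the weakest call among the members (SE 0.14, limma adjusted p = 0.0352). That call was lost when KO replicate 1, KO replicate 3, control replicate 1 or control replicate 2 was left out (adjusted p from 0.0565 to 0.114), and in the authors' deposited table Cnn1 had an FDR of 0.104. Smtn (chromosome 11, 3517523 to 3540612), the gene of smoothelin, a protein of contractile smooth muscle, had 17.0, 17.2 and 16.2 FPKM in KO libraries, against 12.9, 13.3 and 13.5 FPKM in control libraries. It had the narrowest spread of the members that rose, and its log2 fold change was 0.32 (SE 0.04, limma adjusted p = 0.000197). Lmod1 (chromosome 1, 135324807 to 135368065), the gene of leiomodin, which starts new actin filaments in smooth muscle, had 3.12, 4.13 and 3.13 FPKM in KO libraries and 2.86, 4.52 and 2.89 FPKM in control libraries. In both groups replicate 2 was the high one, and the log2 fold change was 0.03 (SE 0.15, limma adjusted p = 0.891).

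The gene of the motor was lower, and that of its kinase did not pass the test. Myh11 (chromosome 16, 14194527 to 14291408), the gene of smooth muscle myosin heavy chain and the most specific smooth muscle marker of the set, had 14.5, 16.7 and 12.1 FPKM in KO libraries, against 24.4, 24.6 and 19.7 FPKM in control libraries. No KO library reached a control library, and the log2 fold change was -0.63 (SE 0.12, limma adjusted p = 0.00131), with the mean control level 1.58 times the mean KO level. Mylk (chromosome 16, 34745210 to 35002420), the gene of the myosin light chain kinase that switches contraction on, had 24.0, 24.8 and 23.7 FPKM in KO libraries and 26.9, 26.4 and 24.9 FPKM in control libraries. The ranges did not overlap, but the gap was small and the gene did not pass the test (log2 fold change -0.10, SE 0.04, limma adjusted p = 0.0601). Without control replicate 3 it passed, at -0.13 (adjusted p = 0.0153).

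The scaffold and adhesion members had the largest ratios of mean FPKM between the groups, in opposite directions. Synpo2 (chromosome 3, 123076519 to 123236149) encodes synaptopodin 2, also called myopodin, an actin-bundling protein of smooth muscle and Z-lines. It had 0.492, 0.424 and 0.366 FPKM in KO libraries, against 1.49, 1.67 and 1.38 FPKM in control libraries, which corresponds to 57, 44 and 39 reads against 133, 214 and 157 reads. Control levels were thus 3.54 times KO levels, and with no limit on low values the log2 fold change was -0.82 (SE 0.10, limma adjusted p = 0.000118), in a fit that called 36.2% of all genes lower. Every gene in the deposited table reached 1 FPKM in some library. Synpo2 did so only in control libraries, so its presence there favoured a fall. Itga8 (chromosome 2, 12106632 to 12301920) encodes integrin alpha 8, the chain that pairs with integrin beta 1 on smooth muscle and mesenchymal cells and binds nephronectin. It had 10.8, 12.3 and 11.5 FPKM in KO libraries, against 4.43, 3.62 and 4.41 FPKM in control libraries. This was the largest rise among the tested members, 2.78-fold in mean FPKM, with a log2 fold change of 1.29 (SE 0.08, limma adjusted p = 2.14e-06).

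**Figure D2:**
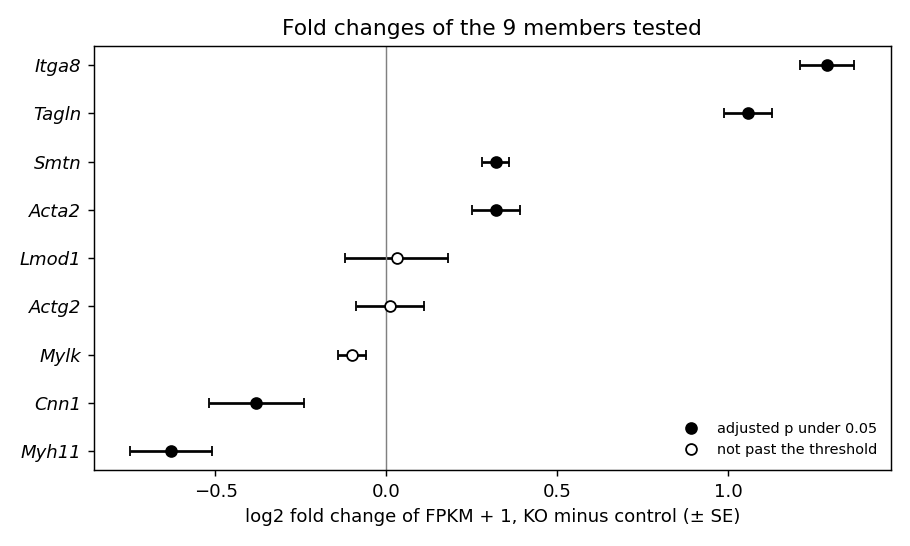
Log2 fold change of FPKM + 1 for the 9 tested members, KO minus control, with the standard error from limma as the bar. Filled points passed an adjusted p of 0.05 and open points did not; the values run from 1.29 for Itga8 to -0.63 for Myh11.

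The order of the levels, which FPKM gives per length, changed accordingly. In KO libraries Acta2 and Tagln had overlapping levels (means of 95.4 and 92.1 FPKM), followed by Mylk, then by Smtn, Myh11 and Itga8. The levels of Smtn overlapped those of Myh11, and those of Myh11 overlapped those of Itga8. Actg2, Cnn1 and Lmod1 came next, the last pair overlapping, and Synpo2 was lowest. In control libraries Acta2 stood alone at the top (mean 76.3 FPKM), Tagln was next at 43.8 FPKM, and Mylk and Myh11 followed at 26.0 and 22.9 FPKM without overlap. Smtn, Actg2 and Cnn1 came below them, and Itga8 at 4.15 FPKM overlapped Lmod1 at 3.42 FPKM. Itga8 therefore stood above Actg2, Cnn1 and Lmod1 in KO libraries, whereas in control libraries it stood below Actg2 and Cnn1.

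Ratios of members within a library do not depend on how libraries were scaled, and 6 were computed, chosen after the levels were seen. The ratio of Tagln to Acta2 was 0.951, 0.938 and 1.01 in KO libraries, against 0.582, 0.582 and 0.556 in control libraries. The ratio of Acta2 to Myh11 averaged 6.67 ± 0.848 in KO libraries and 3.35 ± 0.276 in control libraries (SD, n = 3 each). The ratio of Tagln to Myh11 averaged 6.47 ± 1.08 in KO libraries and 1.92 ± 0.117 in control libraries (SD, n = 3 each), and that of Itga8 to Myh11 0.810 ± 0.122 in KO libraries and 0.184 ± 0.0386 in control libraries. The ratio of the kinase to the motor, Mylk to Myh11, averaged 1.70 ± 0.237 in KO libraries and 1.15 ± 0.104 in control libraries. The ratio of Actg2 to Acta2 averaged 0.0838 ± 0.0108 in KO libraries and 0.104 ± 0.00823 in control libraries. The groups did not overlap for any of the 6 ratios, and each had a two-sided exact permutation p of 0.10 (0.10 after Benjamini-Hochberg adjustment over the 6), which is the smallest that 3 libraries against 3 can give. Because the pairs were chosen after the levels were seen, the separation and these p-values only describe the chosen pairs. Of single genes tested, 74.3% had separate ranges, and no such share was computed for other pairs.

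**Figure D3:**
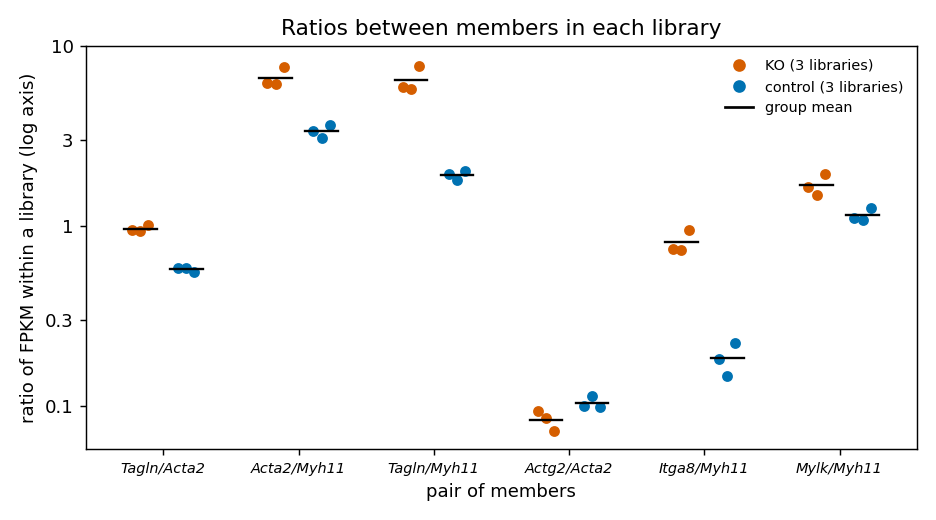
Ratio of the FPKM of a pair of members within each library, on a log axis, with KO libraries left of control libraries and a bar at the group mean. The 3 KO libraries lie above the 3 control libraries for every pair except Actg2 against Acta2, where they lie below; Tagln against Myh11 runs from 5.74 to 7.71 in KO libraries and from 1.79 to 2.02 in control libraries.

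Some members share exon bases with genes on the opposite strand, and the strand setting of the authors' counting is not given in the sources used here, so reads of such pairs cannot be told apart. In GENCODE M21, 62.4% of the exon bases of Tagln lie opposite the antisense model Gm48529 and 5.43% opposite Pcsk7, and 16.3% of those of Smtn lie opposite Gm11946. Pcsk7, a proprotein convertase gene, had 7.97 ± 0.121 FPKM in KO libraries and 7.78 ± 0.0418 FPKM in control libraries and did not pass the test (limma adjusted p = 0.604). E030013I19Rik, opposite 5.05% of the Itga8 exon bases, had 0.825, 1.05 and 0.833 FPKM in KO libraries, against 0.268, 0.213 and 0.30 FPKM in control libraries, and so was higher in the same libraries as Itga8. It averaged under 1 FPKM and was not tested. Genes had to reach 1 FPKM in some library to be in the deposited table. E030013I19Rik did so only in KO replicate 2, so its presence there favoured a rise.

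Some members also varied together among libraries of a group. KO replicate 2 had the highest KO value for 9 of the 10 members, Synpo2 being the exception, while it was the highest KO library for 30.2% of all genes tested. Control replicate 3 had the lowest control value for 7 of the 10 members, against 26.7% of all genes tested. Deviations of log2(FPKM + 1) from the group means over the 6 libraries correlated most between Cnn1 and Actg2 (Pearson r = 0.98), Myh11 and Cnn1 (0.97), Myh11 and Actg2 (0.95), Tagln and Acta2 (0.90), and Mylk and Myh11 (0.90). The 36 pairs had a median r of 0.46, ranging from -0.53 for Smtn with Tagln to 0.98, and 27 of them had r over 0. Itga8 had r below 0 with most other tested members, down to -0.45 with Lmod1. These points share libraries and are described without a test or a background of other gene pairs. The spread of Myh11 was well above its counting error, with a coefficient of variation of 15.8% in KO and 12.3% in control libraries, against counting errors of 3.02% and 2.40% for 1 library. For Synpo2 in KO libraries both were 14.8%.

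**Figure D4:**
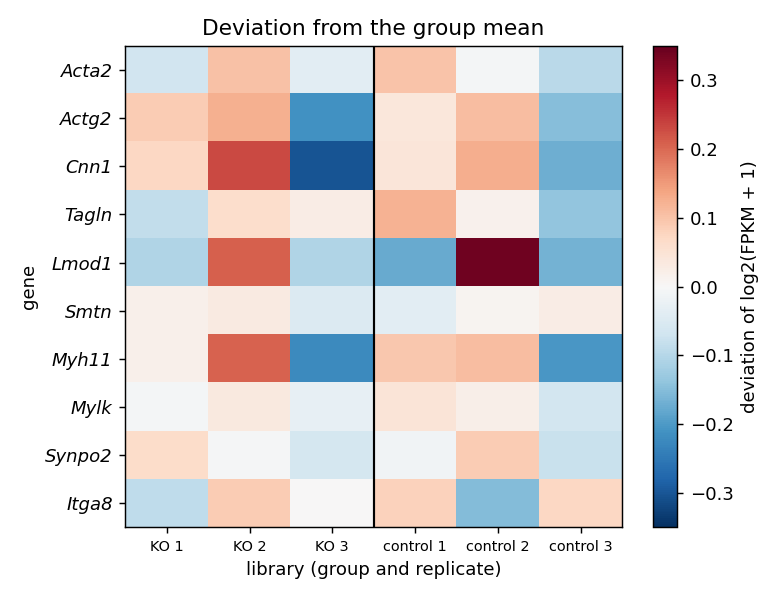
Deviation of log2(FPKM + 1) from the mean of its group for each member (rows) and library (columns, KO left of control), from blue for below to red for above. KO replicate 2 is above its group mean for every member but Synpo2, and in KO replicate 3 and control replicate 3 Myh11, Cnn1 and Actg2 are low together.

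Among 6783 other genes that averaged 10 FPKM or more, those whose deviations over the 6 libraries were most like the mean deviation of the 9 tested members were Limd1 (r = 0.990), 4931406P16Rik (0.988), Ptprf (0.987), Fnbp1 (0.984) and Ppp2r5e (0.984). They encode a LIM-domain protein, an uncharacterised protein, a receptor tyrosine phosphatase, an actin-linked F-BAR protein and a regulatory subunit of protein phosphatase 2A, in that order. With 6 libraries and 6783 genes ranked, the likeness is given as a description.

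Other genes of the contractile machinery were mostly higher in KO libraries. Of 57 tested, 43 were higher, 8 lower and 6 did not pass, with a median log2 fold change of 0.46, where 35.2% of all genes tested were higher and 33.7% lower. Among the 6788 genes that averaged 10 FPKM or more, tested by themselves, 43.5% were higher and 26.9% lower, so abundant genes leaned upward in general. This limit also holds for the separate lists below, which are set beside the shares of all genes. These lists were drawn up with earlier results of the data known. In the list of actins and thin-filament proteins 13 of 16 were higher and 3 lower (median 0.63). Tagln2, a transgelin of non-muscle cells, had 86.8 ± 2.72 FPKM in KO libraries and 34.6 ± 1.16 FPKM in control libraries (SD, n = 3 each). The tropomyosin gene Tpm1 had 91.3 ± 2.70 FPKM in KO libraries and 43.0 ± 1.67 FPKM in control libraries, and Cald1, the gene of caldesmon, 132 ± 7.58 FPKM in KO libraries and 54.4 ± 1.92 FPKM in control libraries. The lower genes of this list, Tmod2, Tagln3 and Tmod1, are a pair of tropomodulin genes, which cap actin filaments, and a neuronal transgelin, with log2 fold changes of -0.99, -0.88 and -0.42. Tagln3 reached 1 FPKM only in control libraries, so the limits on low values favoured its call as lower. Tmod1 did not pass without KO replicate 1 or 2 or without control replicate 2 or 3 (limma adjusted p from 0.0559 to 0.105).

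Genes of myosin subunits and of the kinase and phosphatase switch were mostly higher, with 15 of 20 up, 1 down and 4 that did not pass (median 0.43), against 35.2% up and 33.7% down over all genes. Myl12a, a regulatory light chain of non-muscle myosin, had 54.8 ± 0.814 FPKM in KO libraries and 27.3 ± 1.48 FPKM in control libraries. Myh10, a non-muscle myosin heavy chain gene, rose 1.62-fold to 51.0 ± 2.35 FPKM, in contrast to the fall of Myh11. The lower gene was Ppp1r14a, which encodes the smooth muscle phosphatase inhibitor CPI-17, at 13.2 ± 0.754 FPKM in KO libraries and 19.1 ± 0.878 FPKM in control libraries. Myl9, the regulatory light chain of smooth muscle myosin, was among the genes that did not pass and is named after its values were seen, at 78.2 ± 1.45 FPKM in KO libraries and 79.6 ± 3.36 FPKM in control libraries.

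Anchors of actin at dense bodies, Z-lines and the cell cortex numbered 15 higher, 4 lower and 2 that did not pass among 21 (median 0.51), beside the same shares of 35.2% and 33.7% over all genes. Pdlim1, a PDZ and LIM domain protein that binds alpha-actinin, rose 4.26-fold to 56.6 ± 2.11 FPKM in KO libraries, against 13.3 ± 0.843 FPKM in control libraries. The alpha-actinin gene Actn1 rose 2.64-fold and Synpo, the gene of synaptopodin and a paralog of Synpo2, rose 2.39-fold to 29.9 ± 0.927 FPKM. The lower genes included Synm, the gene of the intermediate filament protein synemin of muscle, at 5.59 ± 0.507 FPKM in KO libraries and 15.1 ± 0.226 FPKM in control libraries. Pdlim3, a muscle member of the same PDZ and LIM family as Pdlim1, had 55.2 ± 1.95 FPKM in KO libraries and 88.1 ± 10.3 FPKM in control libraries. Svil, the gene of the actin-bundling protein supervillin, had a log2 fold change of -0.34, and the fourth was Sorbs3 at -0.28.

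The regulators of this gene group were higher or did not pass. Of 12 tested genes around SRF, 10 were higher, none lower and 2 did not pass (median 0.40), where all genes had 35.2% higher and 33.7% lower. Srf itself had 12.9, 13.9 and 12.8 FPKM in KO libraries and 11.7, 12.8 and 13.2 FPKM in control libraries, which overlapped (log2 fold change 0.07, limma adjusted p = 0.328). Myocd, the gene of myocardin, had 4.53, 4.47 and 4.16 FPKM in KO libraries, against 3.13, 2.90 and 2.64 FPKM in control libraries (log2 fold change 0.47, SE 0.08, limma adjusted p = 0.00074). Mkl1, which encodes the myocardin-related factor MRTF-A, had 10.9, 12.2 and 11.7 FPKM in KO libraries, against 5.93, 5.58 and 6.65 FPKM in control libraries (log2 fold change 0.84, SE 0.07, limma adjusted p = 1.2e-05). Its relative Mkl2 did not pass, at 8.84 ± 0.30 FPKM in KO libraries and 9.38 ± 0.365 FPKM in control libraries. Fhl1, a LIM-only protein of muscle, and Elk3, an ETS factor that joins SRF on DNA, rose 2.36-fold and 1.69-fold.

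Receptors and channels that start or end contraction were split about as evenly as all genes (35.2% higher and 33.7% lower), with 7 of 14 tested genes higher, 6 lower and 1 (Gucy1a3) not past the test (median 0.09). The ATP-gated channel gene P2rx2 had 17.3, 14.2 and 12.9 FPKM in KO libraries, against 2.25, 2.03 and 2.45 FPKM in control libraries. Agtr1a, an angiotensin II receptor, rose 3.74-fold to 5.83 ± 0.0617 FPKM and Ednrb, an endothelin receptor, 2.25-fold to 8.64 ± 1.73 FPKM. Its relative Ednra was lower, at 35.1 ± 0.752 FPKM in KO libraries and 48.7 ± 3.62 FPKM in control libraries. The oxytocin receptor gene Oxtr had 2.72, 2.44 and 2.01 FPKM in KO libraries, against 9.30, 10.5 and 9.40 FPKM in control libraries. Kcnma1, the calcium-activated potassium channel that relaxes smooth muscle, had 1.56 ± 0.272 FPKM in KO libraries and 5.08 ± 0.50 FPKM in control libraries.

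Genes around integrin alpha 8 numbered 11 higher, 3 lower and 2 that did not pass (Frem2 and Itga7) among 16 (median 0.43), against 35.2% higher and 33.7% lower over all genes. The partner chain Itgb1 had 129.5 ± 4.67 FPKM in KO libraries and 95.0 ± 7.45 FPKM in control libraries (log2 fold change 0.45, limma adjusted p = 0.000264). Npnt, the gene of the ligand nephronectin, was lower, at 5.69 ± 0.670 FPKM in KO libraries and 6.95 ± 0.0908 FPKM in control libraries (log2 fold change -0.25, limma adjusted p = 0.0199), a call lost without KO replicate 2 or control replicate 2 (adjusted p = 0.0558 and 0.0522). Spp1, the gene of the matrix ligand osteopontin, which macrophages also make, rose 4.46-fold to 136 ± 15.5 FPKM. The collagen receptor chain Itga1 and the fibronectin receptor chain Itga5 rose 3.09-fold and 1.84-fold. Vtn, the gene of vitronectin, and Itga9 were lower, with log2 fold changes of -1.15 and -0.20, and the call of Itga9 was lost without any 1 of 5 of the libraries (adjusted p from 0.0589 to 0.085), all but control replicate 2. Vtn reached 1 FPKM only in control libraries, so the limits on low values favoured its call as lower.

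**Figure D5:**
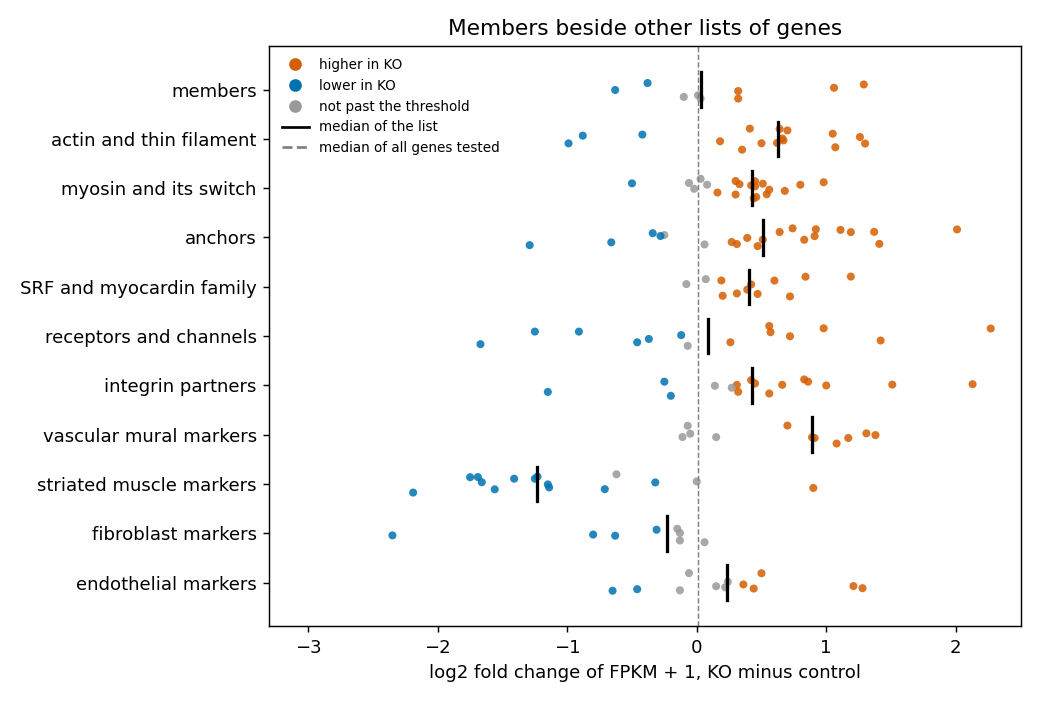
Log2 fold change of FPKM + 1, KO minus control, of each tested gene (points) in the members and in 10 other lists, with a black bar at the median of the list and a dashed line at the median of all genes tested (0.01). The members' median is 0.03, the medians of the thin-filament, myosin and anchor lists are 0.63, 0.43 and 0.51, vascular mural markers have 0.89 and striated muscle markers -1.23.

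Markers of other cells that hold contractile genes are given next, and their part in the members' values was not tested. Over all genes tested, 35.2% were higher in KO libraries and 33.7% lower. Of 11 tested markers of vascular mural cells (pericytes and vessel smooth muscle) 7 were higher in KO libraries, none lower and 4 did not pass (Rgs5, Notch3, Cspg4 and Cox4i2). The summed level of the 12 mural markers was 225 to 283 FPKM in KO libraries and 135 to 150 FPKM in control libraries. Mcam, an adhesion gene of vessel walls, rose 2.51-fold and Abcc9, the sulfonylurea receptor of pericytes, 2.85-fold. KO replicate 2 was the highest KO library for 9 of the 10 members, against 30.2% of all genes tested. It was also the highest for all 11 tested mural markers, 9 of 12 endothelial markers and 7 of 11 macrophage markers. Of the 57 other contractile genes it was the highest for 33, of 8 fibroblast markers for 1 and of 15 striated markers for 2. Among control libraries the members and mural markers differed. Control replicate 3 was lowest for 7 of the 10 members, but highest for 6 of 11 mural markers and lowest for 2. The pericyte marker Rgs5, which did not pass, had 25.6, 35.7 and 30.1 FPKM in KO libraries and 30.8, 27.4 and 23.6 FPKM in control libraries. Striated muscle markers were lower in 12 of 15 tested cases and higher in 1, and their sum was 23.1 to 47.6 FPKM in KO libraries and 61.3 to 90.0 FPKM in control libraries. The striated markers were highest in KO replicate 3 and control replicate 3 within their groups, for 12 of the 15 tested genes each, the libraries in which 6 and 7 of the 10 members were lowest. Over all genes tested these were the highest libraries of their group for 38.7% and 49.2%, and the lowest for 24.3% and 26.7%. The cardiac myosin genes Myh6 and Myh7 had log2 fold changes of -1.69 and -1.56. They averaged 0.450 and 0.422 FPKM in KO libraries, against 3.68 and 3.19 FPKM in control libraries. Like Myh1, Myh2 and Myh3, they reached 1 FPKM only in control libraries, so the limits on low values favoured calls as lower. Tnnt2, a cardiac troponin gene, was the higher one at 0.90. The call of Tnnt2 was lost without KO replicate 1 or 3 or control replicate 1 or 2 (limma adjusted p from 0.0649 to 0.0848).

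Fibroblast markers were lower in 4 of 8 tested cases, where 33.7% of all genes were lower, and none was higher, with sums of 453 to 476 FPKM in KO libraries and 543 to 630 FPKM in control libraries. Pdgfra and Dcn, a receptor and a matrix gene of stromal cells, fell to 0.569 and 0.641 of their control means. Endothelial markers were higher in 5 of 12 cases, near the 35.2% of all genes, and lower in 2, with sums of 164 to 187 FPKM in KO libraries and 150 to 154 FPKM in control libraries. Flt1 and Emcn rose 2.68-fold and 2.62-fold, and Cdh5 and Vwf fell by 0.46 and 0.65 on the log2 scale. All 11 tested macrophage markers were higher, with sums of 460 to 533 FPKM in KO libraries and 54.4 to 56.2 FPKM in control libraries, among them Cx3cr1 and Ctss at 10.3-fold and 8.13-fold. Leydig cell markers were lower in all 9 tested cases, with sums of 380 to 433 FPKM in KO libraries and 835 to 936 FPKM in control libraries, and Hsd3b1 and Nr5a1 had log2 fold changes of -1.22 and -0.89. Sertoli cell markers were lower in 8 of 11 cases and germ cell markers in 8 of 9. Among the lower Sertoli genes Amh and Fshr had the smallest p, with log2 fold changes of -5.06 and -3.42. Fshr reached 1 FPKM only in control libraries, which favoured its call as lower. Cldn11 and Wt1 were higher at 1.52 and 0.41. Among the lower germ cell genes those with the smallest p were Dnmt3l and Lin28a at -2.62 and -2.17, and Stra8 was the higher one at 2.60.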

How the data were processed

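Whole testes were sequenced as RNA, and reads were aligned with STAR, per the labels' protocols. The authors' build and tools included GRCm38 and DESeq2 1.22.2, per the submitters' processing notes. How reads were assigned to genes, whether by strand, and whether duplicates were removed is not given in the sources used here, nor is a counting tool. The authors deposited 1 FPKM value (fragments scaled by exon length and library size) per gene and library, with log2 group means, log2 fold changes, p-values and −log10 p-values of their own. In the authors' deposited table the log2 fold changes of the members were 1.52 for Itga8, 1.12 for Tagln, 0.39 for Smtn, 0.37 for Acta2, 0.05 for Actg2 and Lmod1, -0.06 for Mylk, -0.40 for Cnn1 (FDR 0.104), -0.62 for Myh11 and -1.78 for Synpo2 (FDR 6.33e-14).

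Expression was compared on log2(FPKM + 1) for genes that averaged 1 FPKM or more, using limma 3.58.1 with a mean-variance trend (R 4.3.3), a scale that understates the change of low genes. Columns headed Mutant were read as the KO libraries, and every gene in the table reached 1 FPKM in some library. A gene under 1 FPKM in every library of 1 group thus entered only through the other group, which favours a difference. Whole reads were recovered from FPKM for 99.92% of genes (tolerance 0.003 reads), 7154 of them with merged exon lengths of GENCODE M21 and 7832 from ratios between libraries, where the reads are the smallest whole numbers that match, with library totals of 12322843, 11045693 and 11334995 reads for KO and 9490734, 13620088 and 12104746 reads for control libraries. Recovered reads of the members ran from 39 to 3654 per library. These totals and the counting errors cover counting only. Named genes were all members and, in each other list, up to 3 genes (2 for cell markers) with the smallest p in each direction, plus Srf, Myocd, Mkl1, Mkl2, Itgb1 and Npnt. A gene of the myosin list that this rule named is not reported here. The alternatives were another pseudocount, other limits on low values, leaving out each library, a replicate block, median-ratio scaling, limma-voom on recovered reads and a stricter threshold. Others among the named genes are said to be named later or complete a count of 5 or fewer. The members and lists were chosen with earlier results of these data known. The test was checked on simulated data with far fewer changed genes and the same extra spread for every gene. That check does not show how the test performs in these data. Python 3.11.15 with pandas 2.3.3 handled the tables and matplotlib 3.10.9 the figures. Coordinates are those of the deposited table.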

Additional observations from a re-analysis of the deposited data

How the results depend on the processing

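The members called higher numbered 4 in every alternative except the limit of a mean of 10 FPKM, which leaves out Itga8 and gave 3. The members called lower numbered 2, with 3 where no limit was set (Synpo2 joining) and 1 with a mean of at least 10 FPKM or an adjusted p of 0.01. Leaving out 1 library gave 1 to 3, the 3 without control replicate 3 and the 1 without KO replicate 1 or 3 or control replicate 1 or 2. Over that limit of 10 FPKM, other smooth muscle genes called lower were 5 in place of 8 and all genes called 4780 in place of 9492, with fewer genes tested. Actg2 and Lmod1, which did not pass in any fit, changed sign when 1 library was left out (-0.0677 to 0.1133 and -0.0786 to 0.1964 on the log2 scale). By limma-voom on recovered reads with median-ratio scaling, chosen after seeing the data, they were -0.0025 and -0.0145; the cause was not tested. Replicate numbers did not pair the libraries (correlations of deviations -0.00713, -0.016 and 0.0966). Only KO and control replicate 3 correlated best with their own number. With the replicate block 9359 genes were called, 4 members higher and 2 lower. The block lowered the limma adjusted p of Myh11 from 0.00131 to 2.83e-05 and that of Cnn1 from 0.0352 to 0.00383. It raised those of Itga8, Tagln, Acta2 and Smtn, which stayed called. Median-ratio scaling moved the median of all genes to 0.02 on the log2 scale. Of 66 genes named, 57 kept direction and call in all alternatives that could be run on them. The planned limma-voom with TMM scaling was not run. Depth limits Synpo2, with 39 to 57 reads per KO library.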
